A study of Homo sapiens with 54 samples.

Results

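The enzymes that write, copy and remove DNA methylation were followed across human pluripotent stem cells grown with different FGF additives. The 8 genes were the DNA methyltransferases DNMT1, DNMT3A and DNMT3B, the methyltransferase-like DNMT3L, the 3 TET enzymes TET1, TET2 and TET3, and UHRF1, the partner of DNMT1. They were chosen by symbol, through the RefSeq transcript that the array gives for each probe, among 20408 named genes. They hold 16 of the 42405 probes of the 1-colour Agilent array. The 2 TET3 probes were named through the probe table of the study, because their transcript no longer stands in RefSeq.

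RNA came from 27 cultures, each measured on 2 arrays that were averaged and counted as 1 culture, and 54 arrays limit the precision. H1, a human embryonic stem cell line, was grown in E8 Medium, a defined medium without feeder cells based on Essential 6 Medium with TGF-beta 1. In 3 numbered experiments, a pre-culture stood beside cultures kept for 4 days with bFGF, with FGFC, a chimera of FGF1 and FGF2, or with no FGF. Where either factor was present its dose was 100 ng/mL. Long-term culture had a pre-culture, a bFGF culture and a FGFC culture in each of 5 systems. These were H1 in E8 Medium for 30 days, H1 in medium conditioned by mouse embryonic fibroblasts (MEF) for 41 days with 5 ng/mL, the embryonic stem cell line KhES-1 on feeder cells for 30 days with 5 ng/mL, and 2 induced pluripotent lines derived from human dermal fibroblasts. Of those lines, 201B7 was grown on feeder cells for 50 days with 10 ng/mL and 253G1 in E8 Medium for 36 days with 100 ng/mL. The last culture was H1 differentiated through embryoid bodies without FGF. Each system rests on 1 line and 1 culture per arm, so p-values measure the spread between these cultures.

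DNMT3A and DNMT3B place methyl groups on cytosines of CG pairs that carry none, and DNMT3L, which has no catalytic activity, assists them. After replication UHRF1 binds the half-methylated CG pairs and brings DNMT1 to the unmethylated strand. TET enzymes oxidise 5-methylcytosine, which leads to loss of the mark. Human pluripotent stem cells are known for high DNMT3B and TET1, and DNMT3B is commonly used as a marker of the undifferentiated state.

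The start regions of the genes that the results turn on differ in their content of CG pairs, the substrate of these enzymes. Of the 8 genes, 7 matched 18 promoter windows of RefSeq (GRCh38.p14), each holding 250 bases before and 50 bases after a start, and DNMT3L had no entry. In the sequences, 5′ to 3′ on the strand of the gene, capitals mark CG pairs. They are DNMT1 at chr19:10194904-10195203 on the minus strand, DNMT3B at chr20:32779602-32779901, TET2 at chr4:105145625-105145924 and UHRF1 at chr19:4909251-4909550, these 3 on the plus strand.
DNMT1: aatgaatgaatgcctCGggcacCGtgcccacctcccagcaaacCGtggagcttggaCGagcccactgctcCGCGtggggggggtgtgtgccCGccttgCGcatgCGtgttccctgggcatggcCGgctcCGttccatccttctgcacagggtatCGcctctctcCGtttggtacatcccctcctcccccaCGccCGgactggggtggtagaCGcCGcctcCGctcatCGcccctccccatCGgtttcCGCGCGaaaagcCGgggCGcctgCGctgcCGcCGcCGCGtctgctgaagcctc
DNMT3B: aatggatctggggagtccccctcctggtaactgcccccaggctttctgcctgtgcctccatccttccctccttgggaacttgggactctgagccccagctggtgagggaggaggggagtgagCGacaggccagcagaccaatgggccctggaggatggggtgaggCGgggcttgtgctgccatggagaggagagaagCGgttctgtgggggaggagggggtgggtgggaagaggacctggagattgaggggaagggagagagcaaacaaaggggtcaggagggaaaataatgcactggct
TET2: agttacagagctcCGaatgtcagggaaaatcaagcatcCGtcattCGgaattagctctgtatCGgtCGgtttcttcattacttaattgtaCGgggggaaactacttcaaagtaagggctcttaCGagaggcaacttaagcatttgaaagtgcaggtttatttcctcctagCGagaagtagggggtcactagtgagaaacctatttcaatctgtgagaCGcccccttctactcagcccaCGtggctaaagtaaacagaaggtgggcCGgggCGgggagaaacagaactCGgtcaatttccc
UHRF1: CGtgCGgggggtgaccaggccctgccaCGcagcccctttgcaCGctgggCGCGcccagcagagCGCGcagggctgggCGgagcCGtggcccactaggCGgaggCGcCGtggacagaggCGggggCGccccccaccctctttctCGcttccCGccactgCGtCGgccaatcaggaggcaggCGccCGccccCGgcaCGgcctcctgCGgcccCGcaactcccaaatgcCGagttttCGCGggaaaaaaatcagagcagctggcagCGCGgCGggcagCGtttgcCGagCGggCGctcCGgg
The DNMT3B window is the only one listed for this gene and lies inside it, since the annotated gene runs from 32762385 to 32809356. Likewise, the UHRF1 gene runs from 4903080 to 4962154.

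The 35116 promoter windows of the table held a median of 14 CG pairs, with quartiles of 4 and 28. The DNMT1 window held 30 and the 3 UHRF1 windows 36, 40 and 46. The DNMT3B window held 3, and TET1 windows held 6, 10 and 11. TET2 had a window with 13 and one with 35. A search for the letters TTTCCCGC, TTTGGCGC, TTTCGCGC and TTTGCCGC on both strands, which resemble the site of E2F factors of S phase, matched 3 of the 18 windows and 3.31% of all windows. The matches lay in DNMT1, where TTTCGCGC on the opposite strand began 2 bases before the start, and in 2 windows of UHRF1. In the one printed above, TTTCCCGC on the opposite strand began 14 bases before the start, and in another TTTCGCGC on the strand of the gene began 160 bases before it. These are stretches of overlapping letters and describe the windows only. The octamer ATGCAAAT, bound by POU factors, matched 0 of the 18 windows and 1.77% of all windows.

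Signals are given as normalized log2 values, which are log2 of the processed signal minus the 75th percentile of the array, so that 0 is a probe at that percentile. DNMT1, DNMT3A, DNMT3B, TET1 and UHRF1 were well above background on all 54 arrays. The TET2 probe with the highest signal was above background on 51 arrays and its other probes on 49, 34 and 8. DNMT3L passed on 15 arrays. The TET3 probes passed on 0 and 1 arrays, so that TET3 was in effect not measured here. Where a gene has several probes, the brightest stands for it. Duplicate arrays differed by at most 0.13 for DNMT1 and 0.18 for DNMT3B, but by up to 3.59 for TET3. Levels of different probes were not compared.

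**Figure D1:**
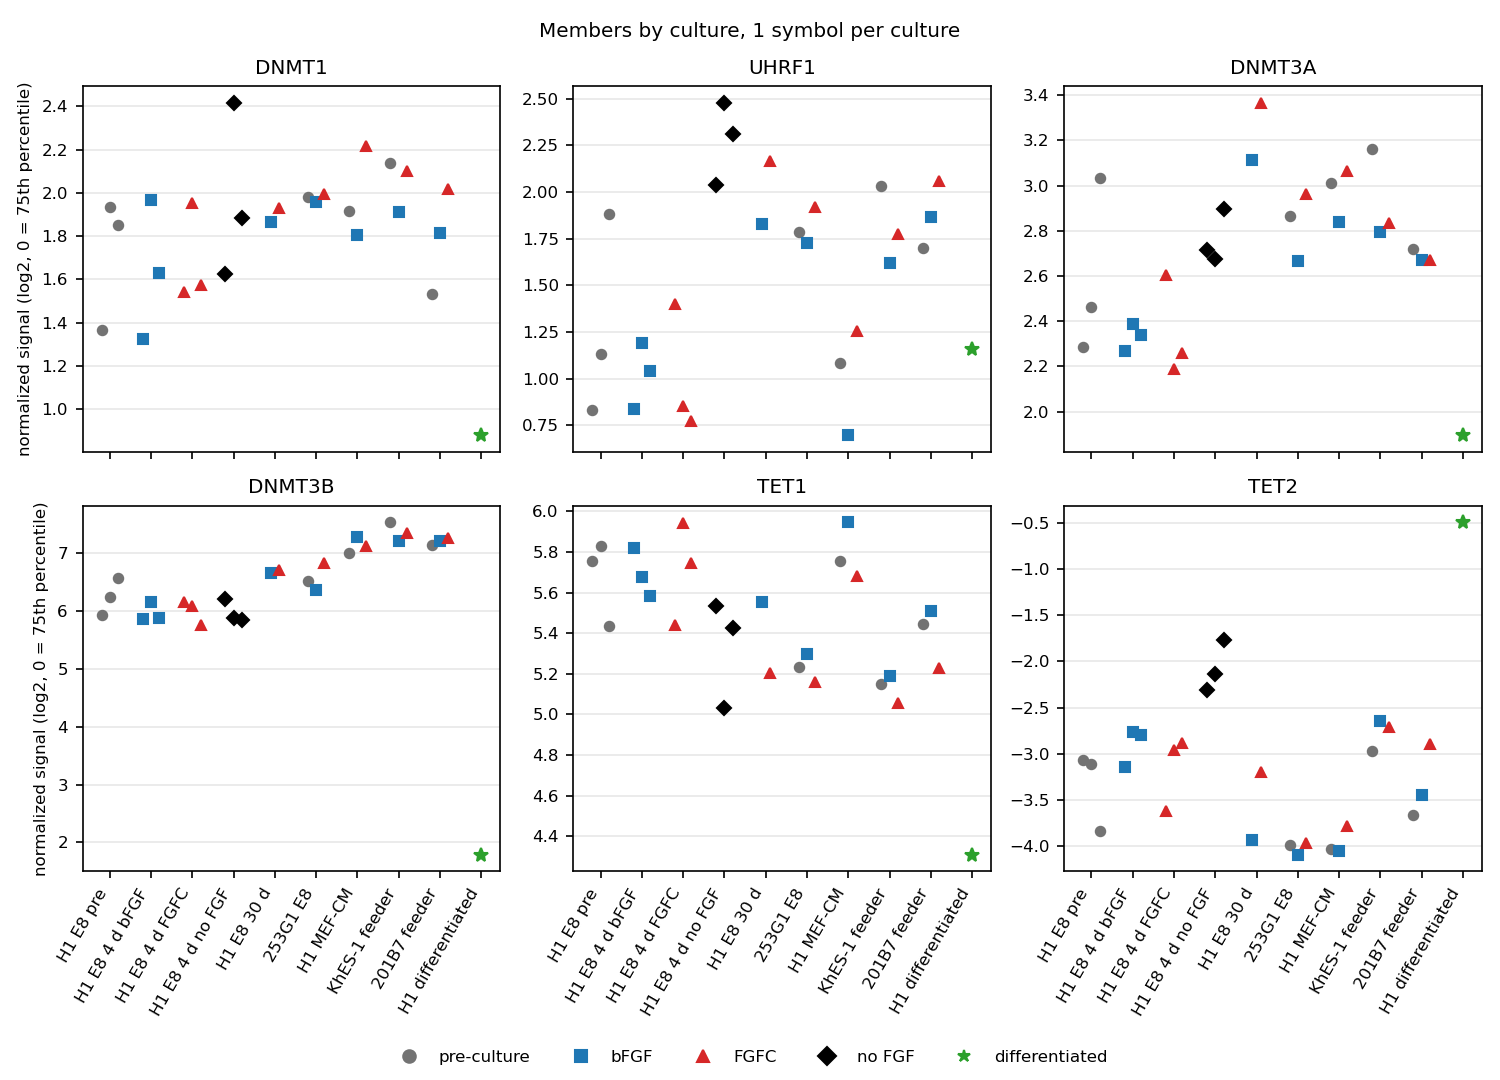
Normalized log2 signal (vertical axis, with its own scale in each panel) of the 6 genes well above background on most arrays, in all 27 cultures by group; each symbol is the mean of duplicate arrays, and its shape and colour give the FGF additive. DNMT3B fell to 1.79 in the differentiated culture, and of the 12 short-term H1 cultures the 3 without FGF had the highest UHRF1.

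UHRF1 rose within 4 days without FGF. Its signal was 2.04, 2.48 and 2.31 without FGF in experiments 1, 2 and 3, against 0.83, 1.19 and 1.04 with bFGF and 1.40, 0.85 and 0.77 with FGFC. All 3 cultures without FGF lay above all 6 kept for 4 days with an FGF, and also above the pre-cultures at 0.83, 1.13 and 1.88. They did not lie above all long-term cultures with an FGF. H1 in E8 Medium had 1.83 with bFGF and 2.16 with FGFC in long-term culture, and 201B7 had 2.06 with FGFC. The values of 2.16 and 2.06 exceeded the 2.04 of experiment 1 without FGF. The 4-day difference from bFGF was 1.25 (SE 0.27), or 2.38-fold, with a limma adjusted p of 0.0118. The difference from FGFC was 1.27 (SE 0.27), or 2.41-fold, with an adjusted p of 0.0124. The other UHRF1 probe rose by 1.15 (adjusted p = 0.00497) and 1.11 (adjusted p = 0.00701).

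By brightest probes, UHRF1 was the only 1 of the 8 genes to pass the test against bFGF. Of all probes 12.7% passed there, 5.54% higher and 7.19% lower. By the same probes, UHRF1 and TET2 passed against FGFC, 2 of 8, beside 10.8% of all probes, 4.72% higher and 6.07% lower. A dimmer DNMT3A probe, A_23_P420373, was also called, as lower, against both (limma adjusted p = 0.0033 and 0.00467). The median difference of the 8 genes was 0.17 against bFGF and 0.13 against FGFC, and that of all probes was 0.01 and -0.02. By brightest probes, the groups of 4 of the 8 genes did not overlap against bFGF and those of 3 against FGFC. The share of all probes without overlap was not counted for these 4-day comparisons, so that lack of overlap is a description. In bulk RNA, fewer cells of a type and less RNA per cell cannot be told apart. With only 2 experiments left, the UHRF1 call against bFGF was lost without experiment 2 (adjusted p = 0.134) and without experiment 3 (adjusted p = 0.0996), while its size stayed at 1.24 in both. Against FGFC it was lost likewise, at 1.09 (adjusted p = 0.231) and 1.13 (adjusted p = 0.150). Within the slides that held both arms, the differences from bFGF were 1.20 in experiment 1 and 1.27 in experiment 3.

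TET2 rose against FGFC and not, by the test, against bFGF. Its signal without FGF was -2.31, -2.14 and -1.77, against -3.15, -2.77 and -2.80 with bFGF and -3.62, -2.96 and -2.88 with FGFC. The 3 cultures without FGF lay above the other 6 and above the pre-cultures at -3.07, -3.11 and -3.84. The difference from FGFC was 1.08 (SE 0.27, limma adjusted p = 0.0258), or 2.12-fold, and that from bFGF 0.83 (SE 0.27, adjusted p = 0.0711). Leaving out any 1 experiment ended the call against FGFC, with values of 0.97, 1.21 and 1.07 and adjusted p of 0.0822, 0.173 and 0.158. The TET2 probes were not alike. A_33_P3238685 differed by 0.33 from bFGF (adjusted p = 0.442) and by 0.89 from FGFC (adjusted p = 0.0403), and the 2 dim probes by -0.34 and -0.41 from bFGF with no call.

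The 3 DNMT3A probes parted in direction. A_23_P420373, which the files assign to another RefSeq transcript than the other 2, had -2.42, -3.38 and -3.67 without FGF. With bFGF it had -1.53, -1.45 and -1.48, with FGFC -1.18, -1.77 and -1.69, and in the pre-cultures -1.61, -1.35 and -1.18. The 3 cultures without FGF were the lowest of the 12. This probe fell by 1.67 (SE 0.29, limma adjusted p = 0.0033) against bFGF and by 1.61 (adjusted p = 0.00467) against FGFC, and it was well above background on all 54 arrays.

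The other DNMT3A probes showed no such fall. A_23_P154500, the brightest, had 2.71, 2.67 and 2.89 without FGF against 2.27, 2.39 and 2.34 with bFGF, a difference of 0.43 (SE 0.21, adjusted p = 0.223), and its groups did not overlap. A_33_P3272330 differed by 0.13 (adjusted p = 0.799). Across the 27 cultures the correlation between pairs of these probes was 0.35 to 0.65, where the UHRF1 probes had 0.92. The arrays share their scaling, and these values describe the cultures only.

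**Figure D2:**
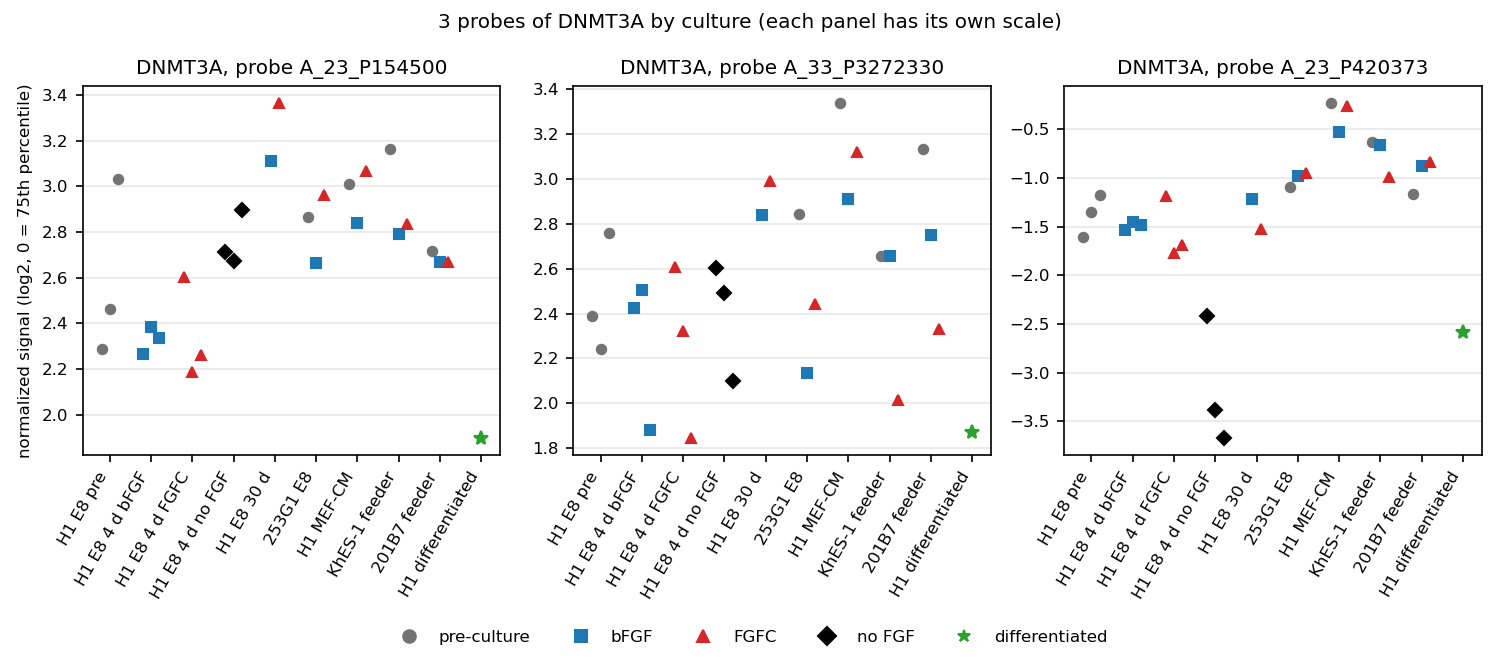
Normalized log2 signal (vertical axis, with its own scale in each panel) of the 3 DNMT3A probes in all 27 cultures by group, with 1 symbol per culture. A_23_P420373 was at -2.42 or lower without FGF and at -2.58 in the differentiated culture, but at -1.77 or higher in all others, while without FGF the other probes differed from bFGF by 0.43 and 0.13 without passing the test.

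DNMT1 and DNMT3B, each with a single probe, and TET1 gave no call without FGF. DNMT1 had 1.62, 2.42 and 1.88 without FGF against 1.33, 1.97 and 1.63 with bFGF, higher within each experiment by 0.30, 0.45 and 0.25, and its groups overlapped (difference 0.33, adjusted p = 0.454). DNMT3B had 6.21, 5.88 and 5.85 against 5.86, 6.16 and 5.89, a difference of 0.01 with a 95% interval of -0.44 to 0.46. TET1 had 5.53, 5.03 and 5.43 against 5.82, 5.68 and 5.58, lower in 3 of 3 experiments with no overlap, but the difference of -0.36 did not pass (adjusted p = 0.290). Against FGFC this brightest TET1 probe was lower in 2 of 3 experiments and 0.09 higher in experiment 1. The groups overlapped, and the difference of -0.38 did not pass either (adjusted p = 0.300). The other TET1 probe, A_23_P322756, was lower in 3 of 3 experiments against bFGF and against FGFC. Its differences were -0.51 and -0.40, with overlap and no call (limma adjusted p = 0.179 and 0.333). DNMT3L and TET3 were not well above background.

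Among the genes around these enzymes some rose and some fell against bFGF, beside the 12.7% of all probes that passed. Of 14 measured partners of DNA methylation, DPPA3, which keeps UHRF1 from chromatin in early embryos, was the only 1 to rise, by at least 4.84-fold since it was not well above background with bFGF (limma adjusted p = 0.000951). Of 9 readers of methylated DNA, ZBTB33 (0.83) and ZBTB4 (0.63) rose and MBD5 fell by 0.97. Of 17 genes of demethylation and base excision repair, GADD45B fell by 2.72. Of 11 genes of the methyl donor cycle, which supplies the methyl group, 0 rose and 3 fell, MTHFD1 by 0.76, MTR by 0.68 and GLDC by 0.55. Of 13 germline genes that methylation is known to silence, 0 rose and 2 fell, SOHLH2 by 1.45 and PIWIL2 by 0.76. The medians of these lists were 0.04, 0.27, 0.10, -0.36 and 0.32, against 0.01 for all probes. The germline median includes genes near background. Outside the differentiated culture, HORMAD1 and SYCE1 were above background on 0 arrays, and MAEL, SYCP3, DDX4, ASZ1 and BRDT on 5 or fewer.

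Markers of the cell state moved in the same cultures. Of 9 pluripotency markers, 3 fell and 2 rose, with NANOG lower by 1.71 and POU5F1 by 1.08, and SOX2 higher by 1.32 and SALL4 by 0.82, and the mean level of the list was 4.28 to 4.53 without FGF and 4.38 to 4.55 with bFGF. Of 6 amnion and trophoblast markers 3 rose, with a mean level of -3.62 to -2.51 against -5.43 to -4.89, and of 6 neural markers 3 rose, with -2.80 to -1.87 against -4.01 to -3.80. Of 6 mesoderm and muscle markers 1 rose and 2 fell, of 7 fibroblast markers 1 fell, and of 6 endoderm markers 0 passed. Of 15 DNA replication genes, CDC6 alone passed, at 1.18, and the mean level of the list was 2.95 or higher without FGF against 2.74 or lower with bFGF and 2.60 to 3.09 in the pre-cultures. The part of these changes in the rise of UHRF1 and TET2 was not tested.

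FGFC in place of bFGF was the central comparison of the study. After 4 days, 0 of the 8 genes passed the limma test by their brightest probes and 0 had an unadjusted p under 0.05. Of all probes, 0% passed, and 1262 had an unadjusted p under 0.05. The differences ran from -0.25 for TET2 to 0.14 for DNMT3L, and the 95% intervals of the 8 genes lay between -0.87 and 0.87. TET2 was lower with FGFC in 3 of 3 experiments (p unadjusted for other probes 0.373 in limma). The groups of all 8 genes overlapped. The other TET2 probes gave larger differences in part. A_33_P3238690 was lower with FGFC in 3 of 3 experiments with no overlap, by -0.90 (95% interval -1.54 to -0.27, unadjusted p = 0.00977 in limma), but was above background on 2 of 6 arrays with FGFC and 5 of 6 with bFGF. A_33_P3238685 differed by -0.56 (95% interval -1.11 to -0.02), also lower in 3 of 3 experiments with no overlap. Neither passed after adjustment.

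Over the 5 long-term systems, 0 of 8 genes passed and 0 had an unadjusted p under 0.05, beside 0% of all probes with 1067 at an unadjusted p under 0.05. TET1 was lower with FGFC in 5 of 5 systems, with differences of -0.35 and -0.26 for H1 (E8 and MEF-conditioned medium), -0.13 for KhES-1, -0.28 for 201B7 and -0.14 for 253G1. Its mean difference was -0.23 (SE 0.11, 95% interval -0.48 to 0.01, limma adjusted p = 0.979). The other TET1 probe, A_23_P322756, was lower in 4 of 5 systems and 0.03 higher in 201B7, with a mean difference of -0.22. DNMT1 and UHRF1 were higher in 5 of 5 systems, by a mean of 0.18 and 0.29, again with no call. The share of all probes with the same direction in 5 of 5 systems was not counted, so that these directions are a description. DNMT3B differed by 0.10 (95% interval -0.24 to 0.45). In each partner, reader, demethylation, methyl donor and germline list 0 genes passed at either time.

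Within a system there is 1 culture per arm and no test, and changes of 2-fold or more were counted. For H1 0 of 8 genes changed 2-fold, beside 6.82% of all probes in E8 Medium and 4.38% in MEF-conditioned medium. It was also 0 of 8 for KhES-1, beside 3.15%, and for 201B7, beside 6.16%. For 253G1 it was 1 of 8 beside 6.98%, and that gene was TET3, at -1.22 and not well above background.

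**Figure D3:**
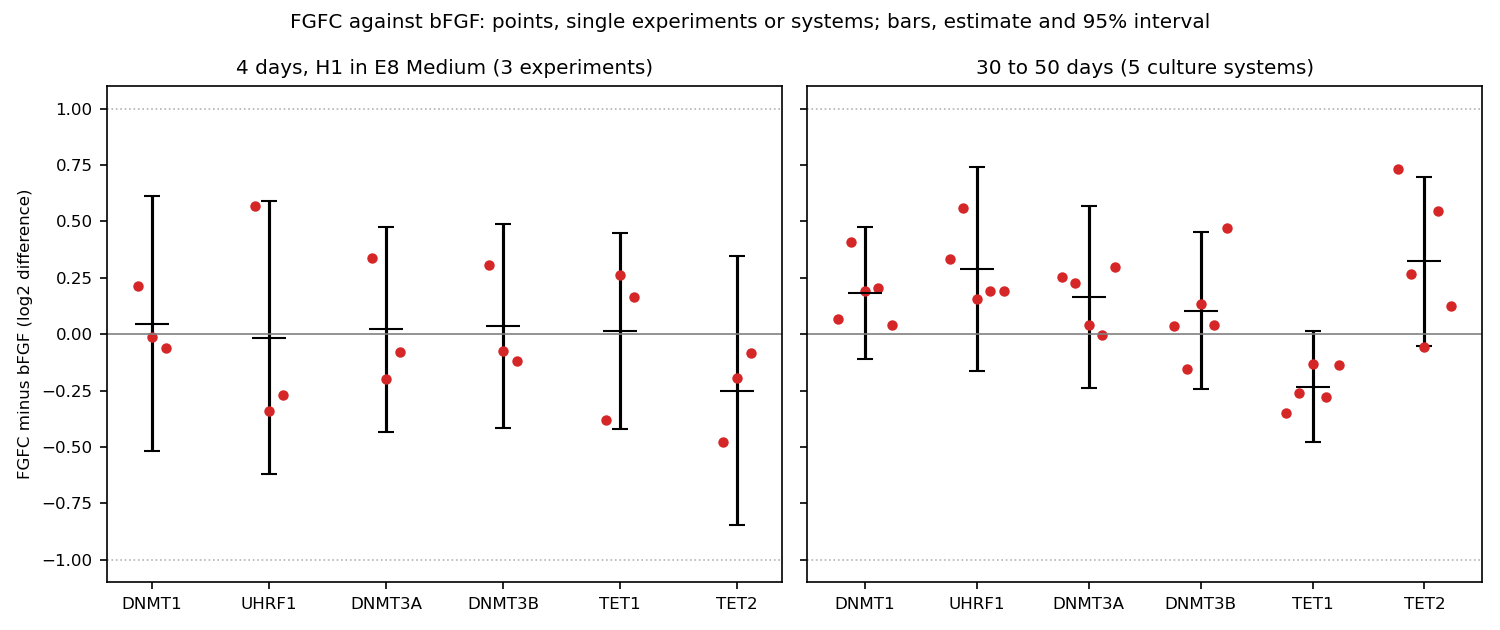
Difference between FGFC and bFGF on the log2 scale (vertical axis) for 6 of the genes, leaving out DNMT3L and TET3, with 1 point per experiment (4 days, left) or system (long-term, right), a bar for the limma estimate with its 95% interval, and dotted lines at 2-fold. Every interval includes 0, and the points of TET1, by its brightest probe, lie below 0 in all 5 systems.

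DNMT3B was lower in E8 Medium than in the other media. It was 5.93, 6.67 and 6.70 in H1 in E8 Medium (pre-culture, bFGF, FGFC) and 6.53, 6.36 and 6.83 in 253G1. In H1 in MEF-conditioned medium it was 7.01, 7.27 and 7.12, in KhES-1 7.53, 7.22 and 7.35, and in 201B7 7.14, 7.22 and 7.26. All 14 cultures in E8 Medium with an FGF, from 5.77 to 6.83 with a median of 6.21, lay below all 9 cultures in MEF-conditioned medium or on feeder cells, from 7.01 to 7.53 with a median of 7.22.

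Such a lack of overlap was found for 2.08% of all probes and, among the 8 genes, for DNMT3B alone. This count was made after the values had been seen. FGF dose moved with the medium, at 100 ng/mL in E8 Medium and 5 or 10 ng/mL elsewhere, and slides were not shared between systems. Among the cultures compared, medium, dose and slide therefore cannot be told apart. The 3 cultures in E8 Medium without FGF, which were not in this count, had DNMT3B at 5.85 to 6.21. The share of probes well above background was 75.2% to 79.2% on the arrays of MEF-conditioned medium and 56.1% to 61.6% on those of 253G1, and its part in the difference was not tested.

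In the test within the H1 line, DNMT3B was higher in MEF-conditioned medium than in E8 Medium by 0.70 (SE 0.21, limma adjusted p = 0.0240). It was 1 of 8 genes called by brightest probes, beside 29.2% of all probes, 8.16% higher and 21.0% lower. The median of all probes was -0.15 and that of the 8 genes 0.15. The E8 pre-culture was the lowest of the 6 cultures, and without it the difference was 0.46 (adjusted p = 0.0663). DNMT3B also missed the threshold without the MEF pre-culture (0.71, adjusted p = 0.0637) and without the MEF culture with bFGF (0.62, adjusted p = 0.0989). Without the pre-cultures of all systems it was 0.51 and not called (adjusted p = 0.0672).

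DNMT3A probe A_23_P420373 was higher in MEF-conditioned medium too, by 1.11 (adjusted p = 0.00127), with -0.23, -0.53 and -0.26 against -1.61, -1.21 and -1.52. DNMT3L differed by 0.98 (adjusted p = 0.0840), at least 1.24-fold, being above background on 5 of 6 arrays against 0 of 6, but by -0.13 with normexp background correction. UHRF1 went the other way at 1.08, 0.70 and 1.26 against 0.83, 1.83 and 2.16. Its difference of -0.60 was not called (adjusted p = 0.116), but without the E8 pre-culture it passed (adjusted p = 0.00262). Among the partners, ZFP57 and PRDM14 were higher, by 1.94 and 1.36. ZFP57 guards methylation at imprinted loci and PRDM14 represses DNMT3B in mouse stem cells. CDCA7, a partner of HELLS, fell by 0.84. Of the methyl donor genes 0 were higher and 4 were lower, and of the demethylation genes 3 were higher and 4 lower. Of 7 fibroblast markers 2 were higher and 2 lower, at a mean level of -2.20 to -2.03 against -2.57 to -1.94 in E8 Medium.

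Other cell type markers moved with the medium too. Of 6 mesoderm and muscle markers 2 were higher in MEF-conditioned medium, led by ACTA2, smooth muscle actin, at 6.16, and the mean level of the list was -1.46 to -1.36 against -3.00 to -2.16. Of 6 neural markers 3 were lower, at a mean level of -4.29 to -4.07 against -4.08 to -3.77. Of 6 endoderm markers 2 were higher and 1 lower, and of 6 amnion and trophoblast and 9 pluripotency markers 1 each was higher and 1 lower. The part of these in the DNMT3B difference was not tested.

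Of the 8 genes, by brightest probes, DNMT3L alone was called in both comparisons between lines, at low signal. In 253G1 it was -5.39, -4.31 and -4.39, against -6.13, -6.36 and -6.12 in H1 in the same medium. The groups did not overlap, but only 1 of the 6 arrays of 253G1 and 0 of 6 of H1 were above background. The difference was 1.50 (SE 0.39, limma adjusted p = 0.0265), and no fold is given because neither line was measured firmly. It was 1 of 8 genes called, beside 14.6% of all probes, 4.90% higher and 9.72% lower. With normexp background correction it was 0.18 (adjusted p = 0.566), and the call was lost without any 1 of 4 cultures, namely both long-term cultures of H1 (1.39 and 1.37, adjusted p = 0.0654 and 0.0843) and of 253G1 (1.28 and 1.50, adjusted p = 0.104 and 0.0739). The arrays of 253G1 had 466 to 623 outlier spots and 56.1% to 61.6% of probes above background, against 343 to 528 and 60.1% to 74.0% on those of H1. Markers of other cell types were also higher in level, with endoderm markers at -3.43 to -3.31 against -4.65 to -4.00 (1 of 6 called higher) and neural markers at -3.54 to -3.42 against -4.08 to -3.77 (0 of 6 called), while amnion and trophoblast markers overlapped at -4.69 to -4.12 against -5.10 to -4.61 (0 of 6 called). The part of these in the DNMT3L difference was not tested.

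On feeder cells, DNMT3L was -5.00, -3.65 and -3.03 in 201B7 and -5.00, -5.81 and -5.48 in KhES-1. The pre-cultures of the lines had the same level, and the later cultures of 201B7 lay above all others. The mean difference was 1.54 (SE 0.39, limma adjusted p = 0.0136), or 2.91-fold, with 4 of 6 arrays above background in each line. TET3 was also called (1.10, adjusted p = 0.0423), but 0 arrays were above background in either line. These made 2 of 8 genes, beside 38.9% of all probes, 27.7% higher and 11.3% lower.

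The 2 arrays of the 201B7 pre-culture were the dimmest of all, with a 75th percentile of 182 and 234, while the later cultures had 504 to 632 beside 542 to 668 in KhES-1. Without the pre-cultures DNMT3L differed by 2.31 (limma adjusted p = 0.00329), and with normexp by 0.87 (adjusted p = 0.00126). The median of all probes was 0.34 higher in 201B7, or -0.05 after quantile normalization. With that normalization DNMT3L differed by 0.88 (adjusted p = 0.153). Without the KhES-1 culture with bFGF it was 1.29 (adjusted p = 0.0640). Fibroblast markers were higher in 201B7, 4 of 7, with a mean level of -0.48 to 0.60 against -2.09 to -1.85, led by DCN at 9.69. Also higher were 3 of 6 amnion and trophoblast, 2 of 6 neural and 1 of 6 mesoderm and muscle markers, with 0 lower in each list. Of 6 endoderm markers 0 passed, and of 9 pluripotency markers 2 were lower and 0 higher. Of the DNA replication genes 5 of 15 were lower and 0 higher. The part of these in the DNMT3L difference was not tested.

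Differentiated H1 cells had lost most DNMT3B signal. The 2 arrays of the culture gave 1.88 and 1.70, against 5.93, 6.25 and 6.57 in the 3 H1 pre-cultures. The mean of 1.79 was 4.46 below their mean of 6.25 ± 0.32 (SD, n = 3), a 22.0-fold difference. It lay 3.98 below the lowest of the other 26 cultures and 4.19 below the mean of the cultures without FGF. There is 1 differentiated culture, so no test was made.

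TET1 and TET2 moved in opposite directions. TET1 was 4.31, against 5.67 ± 0.21 (SD, n = 3) in the pre-cultures, lower by 1.36 or 2.57-fold, and its other probe was lower by 1.45. TET2 was -0.49 against -3.34 ± 0.43 (SD, n = 3), higher by 2.85 or 7.23-fold. That difference was 2.02 with normexp background correction and 3.44 against the 30-day H1 culture with bFGF. All 4 TET2 probes were above their range in the other cultures, by differences of 1.83 to 2.85 from the pre-cultures, and the main probe exceeded the mean of the cultures without FGF by 1.58. The highest of the other cultures was 1 of those without FGF, at -1.77.

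The remaining genes changed less than 2-fold or were not measured firmly. DNMT1 was 0.88 against 1.72 ± 0.31 and DNMT3A 1.90 against 2.59 ± 0.39 (SD, n = 3 each), both below the range of the other 26 cultures, by 0.45 and 0.29. DNMT3A probe A_23_P420373 was at -2.58, lower than the pre-cultures by 1.21 and higher than the mean without FGF by 0.57. The third probe, A_33_P3272330, was at 1.87, lower than the pre-cultures by 0.59. Both of these probes stayed within the range of the other 26 cultures, so that only the brightest DNMT3A probe left it. UHRF1, at 1.16 against 1.28 ± 0.54 (SD, n = 3), stayed within that range. DNMT3L was not above background. TET3 reached -6.58 on 1 array and -2.99 on the other, and its 2-fold change therefore rests on 1 array.

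In all, 4 of 8 genes changed 2-fold, TET3 among them, 2 higher and 2 lower, beside 29.7% of all probes, 14.3% higher and 15.4% lower. By brightest probes, 6 of 8 lay outside the range of the other 26 cultures, 4 below and 2 above. Of all probes 29.7% did so, 16.2% below and 13.5% above. TET3 was among those above, by 0.14 and resting on 1 array, and DNMT3A was among those below by its brightest probe only. The median difference was -0.41 for the 8 genes and -0.12 for all probes.

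**Figure D4:**
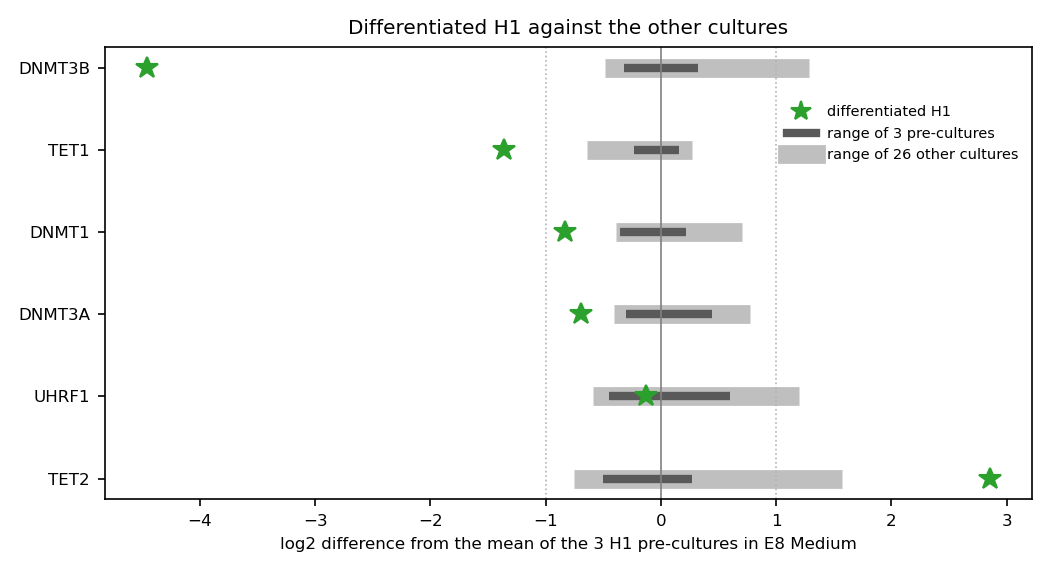
Difference of the differentiated H1 culture (star) from the mean of the 3 H1 pre-cultures, on the log2 scale (horizontal axis), for 6 of the genes, with the range of the pre-cultures (dark bar) and of all 26 other cultures (light bar) and dotted lines at 2-fold. DNMT3B lies 3.98 below and TET2 1.28 above the range of all other cultures.

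Of 14 partners of DNA methylation, 6 were lower 2-fold in the differentiated culture and 0 higher (median -0.62). Below the range of the other cultures were 7, and 1, SETDB1, lay above it. HELLS, a chromatin remodeller needed for methylation, was lower by 1.89 and CDCA7L by 1.71, and PRDM14 and ZFP57 were not well above background on either array. Of 9 readers 4 were higher and 1 lower (median 0.96), with ZBTB4 at 1.76, MBD5 at 1.59 and ZBTB38 at 1.53, and MBD2 lower by 1.21. In the demethylation list 4 of 17 were higher, led by GADD45B at 2.36 and CXXC4 at 2.08, and 3 lower. Of 11 methyl donor genes 1 was higher and 5 were lower, led by MTHFD1 at -1.99, SHMT2 at -1.79 and GLDC at -1.78. Of 13 germline genes 1 was higher and 4 lower. The higher one, SYCE1, was above background on 0 arrays of this culture and 0 of the others, so that its rise was not measured firmly.

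Cell type markers changed on a wide front in that culture. Pluripotency markers were lower 2-fold in 7 of 9 (mean level 1.67, against 4.33 to 4.70 in the pre-cultures), with POU5F1 lower by 5.30 and NANOG by 4.37. Higher were 6 of 6 neural, 6 of 6 endoderm, 6 of 6 amnion and trophoblast, 4 of 6 mesoderm and 6 of 7 fibroblast markers. DNA replication genes were below the range of the other cultures in 12 of 15, at a mean level of 1.91 against 2.60 to 3.09 in the pre-cultures. UHRF1, which is known to be tied to S phase, did not leave its range. The part of the mixture of cells in the values of DNMT3B and TET2 was not tested.

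Across the cultures the genes did not vary as 1 block. DNMT3A and DNMT3B had r = 0.68 over the 27 cultures and 0.62 over the 26 without the differentiated one, a setting added after the data were seen. TET1 and UHRF1 ran in opposite directions, with r = -0.54 over 27 and -0.83 over 26 cultures. DNMT3B and TET2 had r = -0.70 over 27 cultures and -0.38 over 26, so that this relation rested largely on the differentiated culture. Cultures of a system and of an experiment share their cells, and these values are a description.

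Among 15294 named genes above background on at least 27 arrays, those with the pattern most like DNMT3B over the 27 cultures were B3GALT1 (r = 0.97), NRN1L (0.96) and RABGAP1L (0.95). For TET2 they were ZC3H12B (0.91), CDK19 (0.90) and ZNF433 (0.90), for UHRF1 LCMT2, HMGN2 and ZNF48 (0.92 each), and for TET1 ARTN (0.93), ZNF429 and PRR11 (0.93 and 0.92). For DNMT3A they were POLR3B (0.95), DAXX and DOHH (0.94 each). DNMT1 reached only 0.83 with PGAM4, its closest, and DNMT3L 0.91 with CHM. Without the differentiated culture the ranking for DNMT3B did not hold. Its closest genes were then SQSTM1, SLC25A20 and PRDM14 (0.94 each), and B3GALT1 had 0.91. Those closest to DNMT1 were also others, led by SMURF1 (0.82). For UHRF1 the same genes remained, with LCMT2 at 0.95.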

How the data were processed

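The authors deposited the scanner output of 54 SurePrint G3 arrays from Agilent Feature Extraction 10.7.3.1. The processed signal is a background-subtracted intensity on a linear scale, not scaled between arrays. The deposited outlier and background marks of each spot are 0 or 1 scores set by the authors' software. Signals were floored at 1, transformed to log2, averaged over the spots of a probe without outlier spots, reduced by the 75th percentile of the array over probes and averaged over the 2 arrays of a culture. A probe passed background where at least a share of 0.5 of its spots had the mark. Probes above background made up 56.1% to 79.2% per array and 0 were saturated.

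The 4-day arms were fitted on 12 cultures, and the long-term comparisons on 15 with system and arm as terms, in limma 3.58.1 (R 4.3.3; lmFit, eBayes, Benjamini-Hochberg over 42405 probes, threshold 0.05). All p-values are two-sided and come from limma. "At least" folds use the lowest signal above background of each array for the dim group. The 2-fold rule was applied to differences of means without a test. The test was checked on simulated data. The members and gene lists were chosen with earlier results of these data known. Named were all 8 genes, up to 4 genes per list and comparison with the largest differences, and the 3 genes most correlated with a member. Gene names came from RefSeq accessions for 25711 probes and from the study's probe table for 1355, and 15339 had none. The alternatives were normexp (offset 50, on the median signals), quantile normalization, 1 array per culture, all probes of a gene, only probes above background, fewer groups, other reference cultures, blocks for experiment or slide, and leaving out cultures. In experiment 2 the arms are at passage 59 and the pre-culture at 49, and 5 arrays of experiment 3 have conflicting passage labels. Data were handled in Python 3.11.15 with pandas 2.3.3, and figures were drawn with matplotlib 3.10.9.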

Additional observations from a re-analysis of the deposited data

How the results depend on the processing

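Without FGF against bFGF, 1 gene was called by its brightest probe. The count was 2 with normexp, quantile normalization, only probes above background or only the arms compared, each of which added TET2. Leaving out an experiment gave 0 to 1. Against FGFC 2 were called, and 1 with the second array, with the mean of all probes of a gene or with only the arms compared, and 0 to 1 without an experiment. Arms of the same experiment number correlated after removal of arm means at -0.16 to 0.52 (median 0.19), over 0.1 in 13 of 18 values. The main fit had no term for the experiment, although most of these values were positive. With the experiment as a replicate block, the counts stayed at 1 and 2 (UHRF1 1.25 against bFGF, adjusted p = 0.0196 in limma) and no call changed. The block for slide gave the same counts. For H1 in MEF-conditioned medium against E8 Medium the count of 1 became 3 without the pre-cultures, where DNMT3L, TET1 and UHRF1 passed and DNMT3B did not, also 3 with the mean of 3 H1 pre-cultures (DNMT3B, DNMT3L and UHRF1), and 0 to 2 leaving out a culture. For 253G1 against H1 it became 0 with normexp, the second array or only probes above background, and 0 to 1 leaving out a culture. For 201B7 against KhES-1 the count of 2 became 1 with normexp, quantile normalization, slide as a random block or no pre-cultures, 0 with the second array or only probes above background, and 0 to 3 leaving out a culture. Of FGFC against bFGF within systems, 2-fold changes in 253G1 were 0 with normexp, the first array or the mean of probes, and 1 in both H1 systems and 201B7 with the first array and in KhES-1 with the second. The TET3 difference of the differentiated culture reversed to -0.46 with the first array. The cause was not tested. For that culture the count of 4 became 3 with normexp, the first array or the mean of probes, each without TET3, and 5 without the pre-culture of experiment 1, where DNMT1 passed 2-fold. Against the 30-day bFGF culture it was 4 with DNMT3A in place of TET3. The counts for FGFC against bFGF in both tests stayed at 0. The number of arrays, and for DNMT3L, TET2 and TET3 the low signal over background, limit the precision.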
